A study of Mus musculus with 2 samples.

Results

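The 7 microRNA genes described here are those best known from microglia and other immune cells: Mir142, Mir142b, Mir223, Mir146, Mir146b, Mir155 and Mir150. They were taken by symbol, and all 7 were found among the 2202 microRNA genes of the count tables. MicroRNA sequencing had been done on total RNA from the left cerebral cortex of 2 female mice aged 10 days, F1 hybrids of the strain B6CASTF1/J, a cross of C57BL/6J with the wild-derived CAST/EiJ. Neither mouse carried a further allele or received an agent that the labels name, so the study has 1 group of 2 biological replicates, called animal 1 and animal 2 by their replicate numbers. The labels number the females 3 (animal 1) and 4 (animal 2) and give both the same donor entry. If they were not separate animals, the spread below is technical.

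A microRNA is a short RNA cut from a hairpin transcript, and its seed, bases 2 to 8 from the 5′ end, pairs with messenger RNAs that it represses. Microglia, the macrophages that live in the brain, share several microRNAs with blood cells because both arise from blood-forming precursors. In these cells miR-142 is carried by all lineages, miR-223 is typical of granulocytes and monocytes, miR-150 of mature lymphocytes, and miR-146 and miR-155 are switched on by inflammatory signalling. miR-146a restrains that signalling through its adaptors Irak1 and Traf6, while miR-155 represses its inhibitor Socs1.

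The mature sequences are shown because they set which members can act alike and which could be mistaken for each other in counting. They are given 5′ to 3′ from RefSeq (GRCm38.p6, the assembly that mm10 names), with the seed in capitals. For Mir150 only the 3′ arm was available, so its 5′ arm is in none of the sequence comparisons below.

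miR-142a-5p: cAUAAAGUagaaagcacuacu
miR-142a-3p: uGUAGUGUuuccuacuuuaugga
miR-142b: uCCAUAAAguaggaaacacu
miR-223-3p: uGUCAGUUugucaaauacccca
miR-146a-5p: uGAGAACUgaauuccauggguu
miR-146b-5p: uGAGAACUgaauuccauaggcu
miR-155-5p: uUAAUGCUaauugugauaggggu
miR-150-3p: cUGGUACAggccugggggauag

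Among the 12 mature arms listed for the 7 genes, 1 seed occurred more than once: GAGAACU, in miR-146a-5p and miR-146b-5p. Set against all 1738 mature mouse sequences of the table, GAGAACU was found in no gene but these 2, and the seeds of the other 10 arms were found in no other gene. The 2 arms have 20 of 22 bases in common, and the first 17 are identical. Counted from the 5′ end, with the miR-146a-5p base first, they differ by G18A and U21C, both outside the seed. The next closest relation was that of miR-142a-5p to miR-3964, at 4 single-base edits. Every other listed arm of the members was at least 5 edits away from any mature sequence of another gene.

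On the strand of the annotated genes, animal 1 yielded 3806078 reads counted to microRNA genes and animal 2 yielded 2602935. Levels are given as CPM, each gene's reads scaled to the usual common total of these counted reads, with exact Clopper-Pearson 95% intervals for single libraries. Detection means at least 10 CPM in each of the 2 libraries. Intervals cover counting error only. The files show no molecular identifiers, so reads copied from the same molecule could not be told apart, and the intervals may be too narrow. The counts are per hairpin gene, so the 5′ and 3′ arms could not be separated. As a check of the tissue, all 5 neuron-enriched genes listed for it (Mir128-1, Mir128-2, Mir137, Mir138-1 and Mir138-2) were detected. Their summed level was 34219 CPM in animal 1 and 34591 CPM in animal 2. The Mir128 and Mir138 genes are copies, so reads that fitted several places are outside this sum. The list leaves out other neural genes, such as Mir124a-1, which had 13 reads in animal 1 and 7 in animal 2. The tables list microRNA genes alone, so the messenger RNA markers that define microglia were not measured here. Which cells the members' reads came from was not measured either. The reads, most of them from Mir150 and Mir146, can therefore not be credited to microglia or to lymphocytes.

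The members made up a small share of the reads counted to microRNA genes. The 7 genes took 6069 reads in animal 1, which is 0.159% of these counted reads (95% interval 0.155 to 0.164). For animal 2 it was 5070 reads, or 0.195% (0.189 to 0.200), so the intervals did not overlap. The mean was 0.177% ± 0.0250 (SD, n = 2). Reads that fitted several places, 42.7% of all reads in animal 1 and 40.4% in animal 2, lie outside these totals. The ranks below leave them out as well. Mir150, Mir146, Mir142, Mir155 and Mir223, 5 of the 7, were detected, Mir146b had reads but fell below 10 CPM in both animals, and Mir142b had none. For comparison, 13.9% of all 2202 genes were detected. In bulk tissue, fewer cells of a type and less RNA per cell cannot be told apart.

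**Figure D1:**
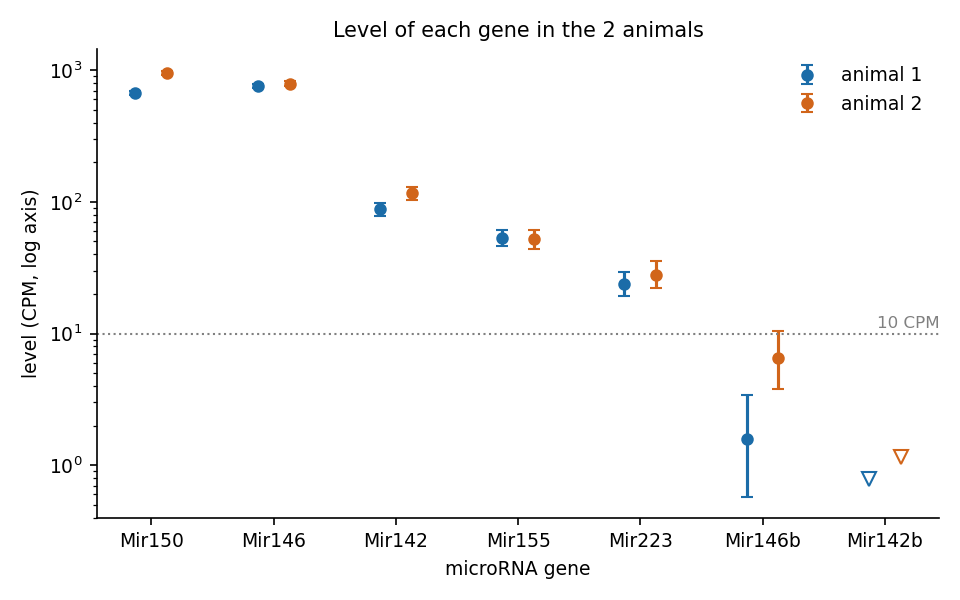
Level of each gene (CPM, log axis) in animal 1 and animal 2; points are single libraries, bars are exact 95% intervals for counting error, and open triangles mark the limit of 0.788 and 1.15 CPM that a count of 0 allows. Mir150 and Mir146 stand between 672 and 955 CPM in both animals, Mir142, Mir155 and Mir223 between 23.9 and 116 CPM, and Mir146b below the dotted line at 10 CPM.

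Mir150 had the highest mean of the 7. The gene (ENSMUSG00000065495.1, chromosome 7, 45121757 to 45121821, mm10, plus strand) lies between annotated genes, 96 bases from the noncoding gene Gm45552. Its product is known for repressing Myb during lymphocyte maturation. It had 2559 reads in animal 1, or 672 CPM (95% interval 647 to 699), and 2486 reads in animal 2, or 955 CPM (918 to 993). Animal 2 was the higher, and the intervals did not overlap. Mir150 ranked 128 among all genes in animal 1 and 98 in animal 2, with a mean of 814 CPM ± 200 (SD, n = 2).

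Mir146, which encodes miR-146a (ENSMUSG00000065601.1, chromosome 11, 43374397 to 43374461, minus strand), is also annotated between genes; the nearest one, the noncoding Gm12148, is 11021 bases away. It had 2877 reads, 756 CPM (729 to 784), in animal 1 and 2056 reads, 790 CPM (756 to 825), in animal 2. These intervals overlapped, and the mean was 773 CPM ± 24.0 (SD, n = 2). Mir146 ranked 125 in animal 1 and 109 in animal 2. Its level lay within the range of Mir150 over the 2 animals, so the order of these top 2 did not hold from animal to animal. Mir146 had 1.12 times the reads of Mir150 in animal 1 (95% interval 1.07 to 1.19) and 0.827 times in animal 2 (0.780 to 0.877).

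Mir146b, the second source of the GAGAACU seed, was scarce. The gene (ENSMUSG00000070127.2, chromosome 19, 46342762 to 46342870, plus strand) lies in an intron of Mfsd13a, a gene on the same strand, 1641 bases from its annotated start. It had 6 reads in animal 1, or 1.58 CPM (0.579 to 3.43), and 17 in animal 2, or 6.53 CPM (3.80 to 10.5). Both values are above the 0.788 and 1.15 CPM set as the limit for a count of 0, but the interval of animal 1 reaches below that limit. Mir146b thus gave 0.208% (0.0764 to 0.452) of the reads of the 2 seed-sharing genes in animal 1 and 0.820% (0.478 to 1.31) in animal 2. The number of Mir146 reads per Mir146b read was 479.5 (95% interval 220 to 1308) in animal 1 and 121 (75.3 to 208) in animal 2. This ratio does not depend on library scaling. It differed between the libraries by Fisher's exact test of the 4 counts (two-sided p = 0.0024). That test compares 2 libraries and rests on 23 Mir146b reads. Because the first 17 bases of the 2 arms are identical, some reads could fit both genes. Whether reads of one gene were counted to the other, or to neither, was not tested.

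Mir142, the gene with the broadest known activity across blood lineages and microglia, had a middle level. The gene (ENSMUSG00000105196.1, chromosome 11, 87756864 to 87756927, plus strand) lies in an intron of its host transcript Mir142hg, 1287 bases from the host's start. It had 333 reads in animal 1, or 87.5 CPM (78.3 to 97.4), and 303 in animal 2, or 116 CPM (104 to 130). Animal 2 was again the higher, without overlap of the intervals, and the mean was 102 CPM ± 20.4 (SD, n = 2). Its rank was 218 in animal 1 and 198 in animal 2.

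Mir142b (ENSMUSG00000065420.2, chromosome 11, 87756841 to 87756955, minus strand) is annotated on the opposite strand of the same place. All 64 bases of the Mir142 hairpin lie inside the 115 bases of the Mir142b hairpin, and the reverse complement of the first was found whole within the second. The 20 bases of miR-142b lie opposite miR-142a-3p and share no base with miR-142a-5p. The 2 hairpins are printed 5′ to 3′, with miR-142b in capitals in its own hairpin and the bases opposite it in capitals in the Mir142 hairpin.

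Mir142: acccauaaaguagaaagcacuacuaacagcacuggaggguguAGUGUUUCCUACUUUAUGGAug
Mir142b: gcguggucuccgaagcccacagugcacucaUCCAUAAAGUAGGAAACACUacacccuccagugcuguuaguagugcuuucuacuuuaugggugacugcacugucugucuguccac

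At this place the reads were on 1 strand. Mir142b had 0 reads on its own strand in both animals, which allows up to 0.788 CPM in animal 1 and 1.15 CPM in animal 2. On the strand opposite Mir142b the tables list 333 and 303 reads, the same numbers as the own-strand reads of Mir142, and Mir142 had 0 reads opposite its own strand. In the count column that ignores strand both genes are listed at 0, because a read there overlaps 2 genes and is counted as ambiguous. A level of Mir142 could therefore be read from the strand-specific column alone. The other members had almost no opposite-strand reads: Mir150 had 2 in animal 1 and 0 in animal 2, and Mir146, Mir146b, Mir155 and Mir223 had 0 in both.

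**Figure D2:**
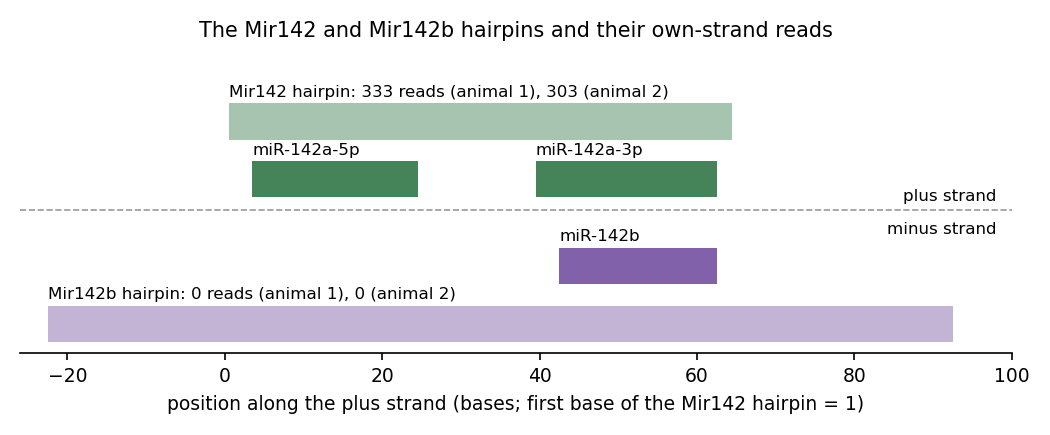
Map of the Mir142 and Mir142b hairpins (pale bars) and their mature arms (dark bars) by position in bases along the plus strand, counted from the first base of the Mir142 hairpin, with own-strand reads per animal beside each hairpin. The miR-142b arm lies within the span of miR-142a-3p on the other strand, and the reads, 333 and 303, are those of Mir142.

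Mir155 is the member most closely tied to activated immune cells. The gene (ENSMUSG00000065397.1, chromosome 16, 84714140 to 84714204, plus strand) lies in an exon of its host noncoding transcript Mir155hg. It had 203 reads in animal 1, or 53.3 CPM (46.3 to 61.2), and 135 in animal 2, or 51.9 CPM (43.5 to 61.4). The 2 animals' levels were nearly equal, with a mean of 52.6 CPM ± 1.04 (SD, n = 2), and the intervals overlapped. Mir155 ranked 242 in animal 1 and 230 in animal 2.

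Mir223, the microRNA of granulocytes and monocytes, was the lowest of the 5 detected members. The gene (ENSMUSG00000076066.1, chromosome X, 96242817 to 96242926, plus strand) lies in an exon of the noncoding gene F630028O10Rik. It had 91 reads in animal 1, or 23.9 CPM (19.3 to 29.4), and 73 in animal 2, or 28.0 CPM (22.0 to 35.3). The intervals overlapped, and the mean was 26.0 CPM ± 2.92 (SD, n = 2). Its rank was 283 in animal 1 and 260 in animal 2.

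By mean CPM the order was therefore Mir150, Mir146, Mir142, Mir155, Mir223, Mir146b and Mir142b. Apart from Mir150 and Mir146, each gene's 2 values lay wholly above those of the next gene in the order. Mir142 had 1.64 times the reads of Mir155 in animal 1 (1.37 to 1.96) and 2.24 times in animal 2 (1.83 to 2.77). Its reads were 3.66 times those of Mir223 in animal 1 (2.89 to 4.67) and 4.15 times in animal 2 (3.21 to 5.44). A read of a microRNA spans most of the mature molecule, so levels were not divided by length; per 100 bases of hairpin the order of the means was the same. How evenly different microRNAs enter a library was not measured, so ratios between genes are ratios of reads.

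**Figure D3:**
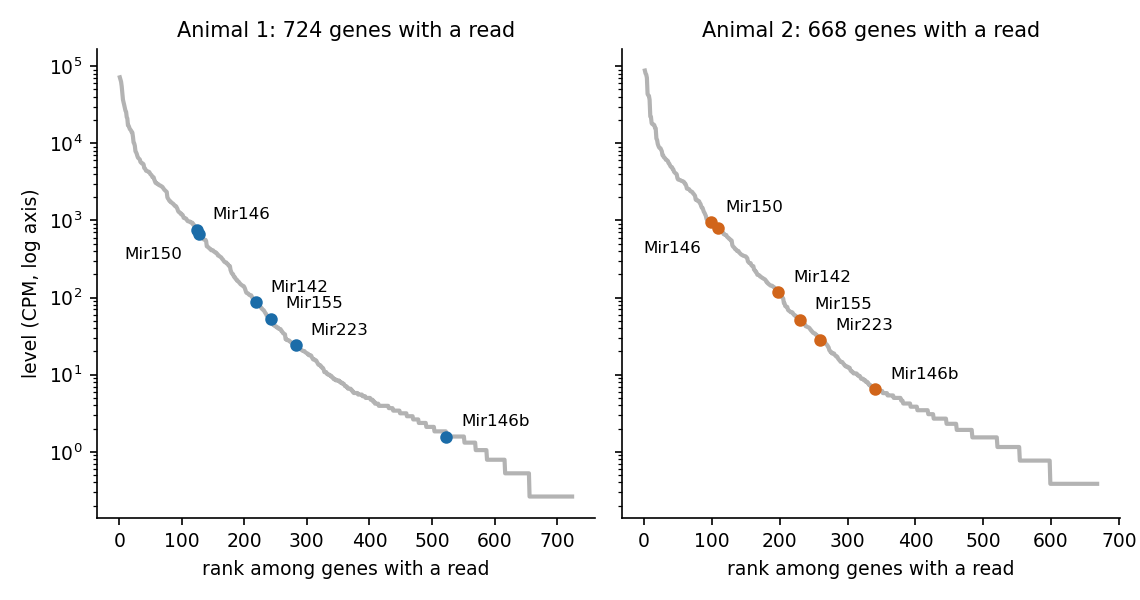
Level (CPM, log axis) against rank for the 724 genes with a read in animal 1 and the 668 in animal 2; the grey line is all genes and points are the members. Mir146 and Mir150 lie close together between ranks 98 and 128 and change places between the animals, while Mir146b lies at rank 523 in animal 1 and 341 in animal 2.

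Within the 7 genes, Mir150 and Mir146 supplied most reads, so a larger share of one leaves a smaller share for the other. Of the members' reads, Mir150 made up 42.2% (95% interval 40.9 to 43.4) in animal 1 and 49.0% (47.6 to 50.4) in animal 2. Mir146 made up 47.4% (46.1 to 48.7) and 40.6% (39.2 to 41.9), although its own level was 756 CPM in animal 1 and 790 CPM in animal 2. Mir142 held 5.49% (4.93 to 6.09) in animal 1 and 5.98% (5.34 to 6.66) in animal 2, and Mir223 held 1.50% (1.21 to 1.84) and 1.44% (1.13 to 1.81), so both had overlapping intervals. Mir155 held 3.34% (2.91 to 3.83) and 2.66% (2.24 to 3.14), also with overlap.

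**Figure D4:**
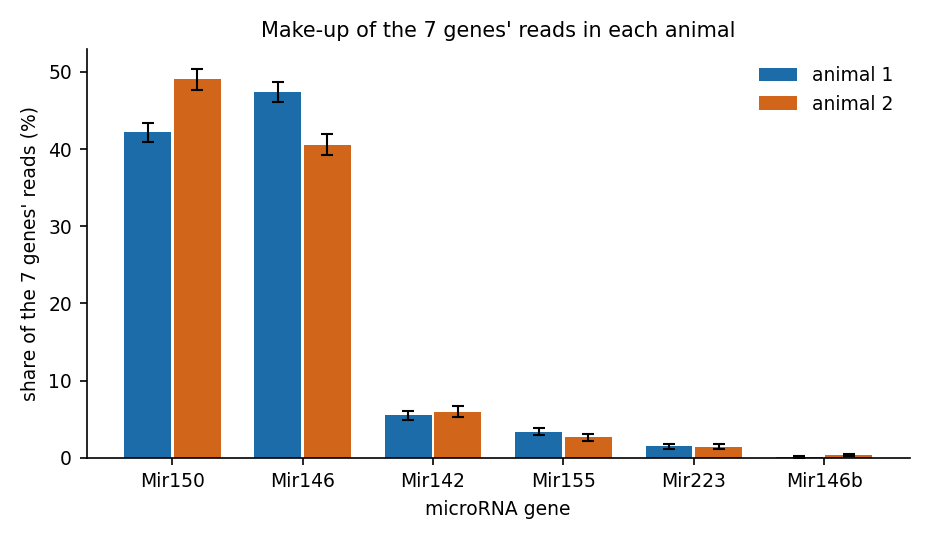
Share of the members' reads (%) taken by each gene in animal 1 and animal 2; bars are single libraries, error bars are exact 95% intervals, and Mir142b, with no read, is left out. Mir150 goes from 42.2% in animal 1 to 49.0% in animal 2 and Mir146 from 47.4% to 40.6%.

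The difference between the animals was tested gene by gene across the whole table, with an exact binomial test given library sizes scaled by TMM (a trimmed mean of ratios that allows for a few abundant genes), Benjamini-Hochberg adjustment and a threshold of 0.05. It compares 2 libraries of 1 group and no conditions. Of the 6 members with enough reads, 4 were higher in animal 2 and 0 in animal 1 (3 and 0 when scaled by library totals alone). Over all 531 genes tested, 51.6% were called, 24.7% as higher in animal 2 and 26.9% as higher in animal 1, so a call alone is common in these libraries. The median log2 ratio of animal 2 over animal 1 was 0.53 over the 6 members and -0.04 over all genes.

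Mir150 was 1.64-fold higher in animal 2 (95% interval 1.55 to 1.73; adjusted p = 1.2e-66 by the exact binomial test). Mir142 was 1.53-fold higher (1.31 to 1.79; exact binomial adjusted p = 3.5e-07), and Mir146 1.20-fold (1.14 to 1.27; exact binomial adjusted p = 7.7e-10). Mir146b was 4.53-fold higher, with the wide interval of 1.79 to 14.8 that 6 and 17 reads allow (exact binomial adjusted p = 0.0018). Mir223, at a ratio of 1.35 (0.979 to 1.86; exact binomial adjusted p = 0.113), and Mir155, at 1.12 (0.894 to 1.40; exact binomial adjusted p = 0.434), did not pass. Their intervals limit the size of a difference and do not show that the animals were alike.

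**Figure D5:**
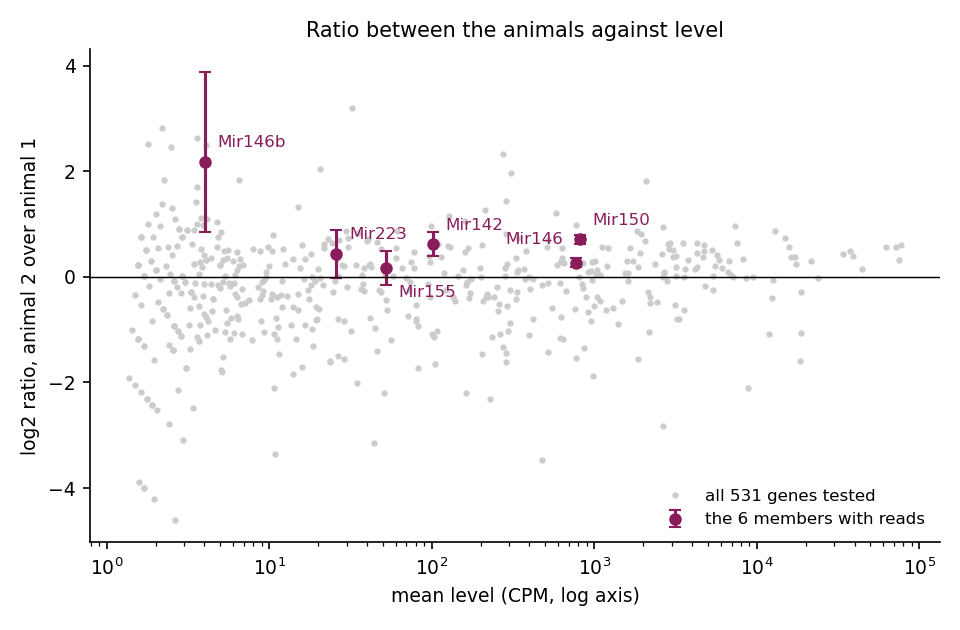
Log2 ratio of animal 2 over animal 1 after TMM against mean level (CPM, log axis) for the 531 genes tested (grey points) and the 6 members with reads (purple, with exact 95% intervals). All 6 members lie above 0, from 0.16 for Mir155 to 2.18 for Mir146b, and the intervals of Mir155 and Mir223 cross 0; scaled by library totals Mir155 lies at -0.04.

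These calls rest on counting noise alone. In a further test the spread between the 2 libraries, a common coefficient of variation of 38.0%, was used as the noise. By it, edgeR's exact test called 0 of the 6 members (lowest adjusted p = 0.725, Mir146b). Of all genes tested it called 0.188%, which is 1 gene. At an unadjusted p under 0.05 it had 1 member, Mir146b, and 33 genes in all. The noise was estimated from the same 2 libraries that were compared, so few calls were possible. This test therefore cannot decide whether the members differ. Scaling by library totals moved the median log2 ratio of all genes from -0.04 to -0.25, and under it Mir146 (log2 ratio 0.06, exact binomial adjusted p = 0.199) lost its call and Mir155 turned to -0.04. Over the alternatives run, the adjusted p ranged from 1.5e-13 to 1 for Mir146 and from 0.0008 to 0.725 for Mir146b, the highest being that of edgeR's exact test.

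Other immune microRNAs were taken from a list of 14 genes known from macrophages, microglia or lymphocytes, most of which neural cells also express. By the exact binomial test 8 of the 14 were higher in animal 2, 3 in animal 1, and 3 did not pass, beside 24.7% and 26.9% of all genes tested in these directions; with library totals 6 and 5 were called, and with DESeq2 size factors 10 and 2. edgeR's exact test with the common dispersion called 0 of the 14 (lowest adjusted p = 0.0894, Mir181a-2), under the limit given above for that test. By it 2, Mir181a-2 and Mir511, had an unadjusted p under 0.05. Mir342, in the Evl gene and abundant in lymphoid cells, had 7324 and 6479 CPM in animals 1 and 2 and did not pass (log2 ratio 0.03, exact binomial adjusted p = 0.112). Mir132, which responds to neuronal activity as well as to inflammatory signals, had 6522 and 6973 CPM and was higher in animal 2 (log2 ratio 0.30). Mir221, which with Mir222 limits cell-cycle inhibitors, had 1415 and 2249 CPM and was also higher in animal 2 (0.87). Each of these 3 was above every member, as were Mir181b-2, Mir125b-1, Mir181a-1 and Mir21a, given below.

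Among the copies of multi-copy microRNAs, whose counts are uncertain because reads that fit several places stand in a row apart, Mir181b-2 had 3637 and 3957 CPM in animals 1 and 2 (log2 ratio 0.32). Mir125b-1 had 2812 and 2555 CPM (0.07) and Mir181a-1 1199 and 1196 CPM (0.20). Chosen after their values were seen, Mir21a, Mir511 and Mir147 are named for their ties to macrophages. Mir21a had 973 and 1252 CPM, above Mir150 and Mir146 in each animal, and was 1.48-fold higher in animal 2. Mir511, in the macrophage receptor gene Mrc1, had 3 and 11 reads, and Mir147, induced in activated macrophages, had 17 and 1.

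Red blood cells and vessels, which a cortex sample also holds, were followed by genes listed for them. The marker list held no genes for white blood cells. Of 4 erythroid genes, Mir451b had no read, and the summed level of Mir144, Mir451a, Mir486 and Mir451b was 78.0 CPM in animal 1 and 46.5 CPM in animal 2. Mir451a was higher in animal 1 (log2 ratio -1.31, exact binomial adjusted p = 2.3e-05), as was Mir144 (-1.17, exact binomial adjusted p = 0.0011). Mir486, at 28.9 CPM in animal 1 and 28.8 CPM in animal 2, did not pass. Endothelial Mir126a and Mir126b together had 28913 CPM in animal 1 and 8265 CPM in animal 2, all from Mir126a, with Mir126b at 0. The smooth muscle and pericyte genes Mir143 and Mir145a summed to 3146 and 4524 CPM in animals 1 and 2, and both were higher in animal 2. The oligodendrocyte genes Mir219a-1, Mir219a-2 and Mir338 summed to 1187 and 1640 CPM; Mir219a-2 and Mir338 were higher in animal 2, and Mir219a-1, with 77 and 4 reads, was higher in animal 1. The choroid plexus gene Mir204 had 865 and 751 CPM. The part of these cells in the members' differences was not tested.

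Genes with the values most like those of a member were found by the distance of log2(CPM + 0.5) over the 2 libraries, for the 3 members with a mean of at least 100 CPM. Nearest to Mir142 were Mir375 (94.1 and 126 CPM in animals 1 and 2, distance 0.15) and Mirlet7a-2 (89.6 and 103 CPM, 0.18). Nearest to Mir146 were Mir28a (834 and 871 CPM, 0.20) and Mir204 (0.21). Nearest to Mir150 were Mir219a-2 (566 and 974 CPM, 0.25) and Mir146 itself (0.32). With 2 libraries such likeness describes these values and no more.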

How the data were processed

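Each deposited table gives read counts, as whole numbers, per microRNA gene, 1 table per library, for both strands, the gene's own strand and the opposite strand. Build mm10 and GENCODE M21 are given in the notes that the authors deposited beside each table; the tools that aligned and counted reads are named by none of the sources used here. All 2202 gene IDs were matched to M21 symbols. Per table, 4 rows of reads given to no gene entered neither library sizes nor tests: of all reads, 17.9 and 23.5% were unmapped (animals 1 and 2), 42.7 and 40.4% fitted several places and 5.79 and 5.62% fell outside listed genes.

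CPM, exact intervals and the exact conditional binomial test (531 genes with at least 10 counts over both libraries, 0.5 added to each count for log2 ratios) were computed in Python 3.11.15 with scipy 1.17.1. TMM factors (1.07 and 0.932) and the exact test with a common dispersion came from edgeR 4.0.16 in R 4.3.3, and alternative size factors from DESeq2 1.42.0. With 1 library per animal and no groups, a quasi-likelihood test had no residual degrees of freedom. The binomial test was tried on simulated counts that held counting noise alone, with library totals and no TMM. That trial does not cover spread between animals. Alternatives covered scaling, strand column, count filter, detection threshold, denominator, hairpin length and leaving out each animal. A count of 0 allows up to 3 counts.

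The members, lists and tests were chosen with earlier results of these data known. Named genes are all members, the 2 nearest genes to each member above 100 CPM, genes sharing a seed, up to 6 other immune genes of at least 100 CPM (taken by mean) and the cell type markers; exceptions are stated.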

Additional observations from a re-analysis of the deposited data

Results flagged for a closer look

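Reads on the strand opposite a gene lie outside the levels above. At Mir142b these were 333 reads in animal 1 and 303 in animal 2, above the 3 counts that a count of 0 allows. They equal the own-strand reads of Mir142 in each library, since the Mir142 hairpin lies wholly inside the span of Mir142b on the other strand.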

How the results depend on the processing

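Of the members' differences between the animals, the count of 4 called members was 4 with DESeq2 size factors and with no count filter. It was 3 with library totals, with the unstranded column or with a minimum of 100 counts. Fewer members could be tested in the last 2. With edgeR's exact test and a common dispersion it was 0, but the noise there came from the same 2 libraries, so few calls were possible. All 6 tested members kept their direction under every alternative run, except Mir155, whose log2 ratio was -0.039 with library totals, against 0.16 with TMM. These alternatives rescaled or filtered nearly the same counts, so a ratio far from 0 could hardly change direction. Of all calls, 47.8% were higher in animal 2 with TMM (131 genes against 143), 32.5% with library totals (91 against 189) and 53.3% with DESeq2 size factors (146 against 128). The 5 detected members became 2 at 100 CPM, 6 at 1 CPM and 4 in the unstranded column, where Mir142 is listed at 0. The members' share was 0.0564% of all reads in the tables, and 0.159 to 0.195% when either animal was left out. The ratio of Mir146 to Mir146b could not change in the unstranded column, because neither gene had opposite-strand reads. No paired analysis was possible because there is 1 group. Depth limits Mir146b, at 6 and 17 reads, and Mir142b, at 0.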
